A study of Mus musculus with 12 samples.

Results

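The proteasome is the protease that degrades most short-lived and damaged cytosolic and nuclear proteins. Its barrel-shaped 20S core is built from rings of alpha subunits (Psma genes), which gate the entrance, and rings of beta subunits (Psmb genes), of which a few carry the catalytic sites. The 19S cap feeds the core. It is made of ATPases (Psmc genes) that unfold substrates and of non-ATPase subunits (most Psmd genes), some of which recognise or trim ubiquitin chains. In immune cells, interferon signalling induces replacement catalytic subunits (Psmb8, Psmb9, Psmb10) and an activator, PA28 alpha-beta (Psme1, Psme2), which together change the peptides made for MHC class I, and lymphocytes are known to express them without infection. Other activators, an inhibitor and the Psmg chaperones, which guide assembly of the core, complete the family.

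The members were the genes of the deposited table whose symbol is Psm, a letter from a to g and a number. The pattern matched 47 of 24502 genes: 7 Psma genes, 7 constitutive Psmb genes, 5 immunoproteasome genes (Psmb8, Psmb9, Psmb10, Psme1 and Psme2), 6 Psmc genes, 14 Psmd genes, 4 other activators and inhibitors (Psme2b, Psme3, Psme4 and Psmf1) and 4 Psmg genes. The choice used no measured value. All 47 passed the filter on low counts that left 14827 genes for testing. Processed pseudogene symbols (Psma5-ps, Psmb6-ps, Psmb7-ps2) and Psmc3ip, which encodes a recombination protein, fall outside the pattern.

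The study sequenced poly(A) RNA of mouse regulatory T cells (Tregs), the Foxp3-expressing CD4 T cells that restrain immune responses. The mice were 11 weeks old, and their strain was given either as Foxp3CreGpx4fl/fl, in which Cre recombinase driven by the Foxp3 gene removes a loxP-flanked Gpx4 from Foxp3-expressing cells (KO here), or as WT. Gpx4 encodes the selenoprotein that reduces lipid hydroperoxides in membranes. Sorted cells were either stimulated through CD3 and CD28 for 4 h with plate-bound antibody (5 µg/ml) or labelled unstimulated, which gave 4 groups of 3 libraries: stimulated KO, stimulated WT, unstimulated KO and unstimulated WT. Whether the WT mice carried the Cre allele, how long unstimulated cells were kept in culture and whether the 3 libraries of a group came from separate mice are not stated. A Cre effect and the loss of Gpx4, and likewise culture and stimulation, therefore cannot be told apart. The library identifiers also run in blocks by genotype and state, so any processing batch that follows them cannot be told apart from the groups. The p-values therefore reflect library-to-library spread, part or all of which could be technical.

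Totals ran from 24629230 to 31879267 counts per library. Genes detected numbered 13981 to 14917 in stimulated KO and 15217 to 15988 in stimulated WT libraries. Unstimulated KO had 15126 to 17577 and unstimulated WT 16229 to 16282. Genes without a count in a library but averaging at least 5 CPM over the others numbered 107 to 190 in stimulated KO. There were 25 to 69 in stimulated WT, 9 to 57 in unstimulated KO and 14 to 24 in unstimulated WT. The part of these differences in the results was not tested. Gpx4 stood at 3.34 to 9.23 CPM (counts scaled to library size with TMM factors) in stimulated KO libraries against 69.2 to 107.5 CPM in stimulated WT libraries, and at 4.96 to 12.3 CPM in unstimulated KO libraries against 142 to 172 CPM in unstimulated WT libraries. The 6 Treg markers (Foxp3, Il2ra, Ctla4, Ikzf2, Cd4, Cd3e) summed to 5451 to 6267 CPM in stimulated KO libraries against 4515 to 4946 CPM in stimulated WT libraries. In unstimulated libraries the sums were 2634 to 2806 CPM in KO against 2528 to 2631 CPM in WT, so KO lay above WT in both states. In each genotype Il2ra, Ctla4 and Ikzf2 were higher, and Cd4 and Cd3e lower, in all stimulated than in all unstimulated libraries. Foxp3 stood at 47.9 to 75.9 CPM in stimulated KO libraries against 22.3 to 36.7 CPM in unstimulated KO libraries. In WT it was 33.7 to 43.5 CPM stimulated against 20.6 to 26.8 CPM unstimulated. Foxp3 was thus higher in all stimulated libraries of each genotype, and higher in stimulated KO than in stimulated WT libraries. Mitochondrially encoded genes took 2.84% to 3.72% of counts in stimulated KO libraries against 1.18% to 1.37% in stimulated WT libraries, and 1.72% to 1.94% in unstimulated KO libraries against 1.21% to 1.39% in unstimulated WT libraries. The 8 neutrophil markers summed to 1.20 to 6.38 CPM in unstimulated KO libraries against 29.5 to 93.7 CPM in unstimulated WT libraries, and to 4.85 to 74.8 CPM in stimulated KO libraries against 21.3 to 59.3 CPM in stimulated WT libraries. The 5 monocyte and macrophage markers summed to 65.2 to 89.9 CPM in stimulated KO libraries against 25.9 to 63.2 CPM in stimulated WT libraries, and to 115 to 154 CPM in unstimulated KO libraries against 134 to 243 CPM in unstimulated WT libraries. In both genotypes the monocyte and macrophage markers were lower in all stimulated than in all unstimulated libraries. The 4 B cell markers summed to 5.03 to 60.8 CPM in stimulated KO libraries against 26.2 to 47.6 CPM in unstimulated KO libraries, and to 13.8 to 24.0 CPM in stimulated WT libraries against 40.2 to 51.9 CPM in unstimulated WT libraries, where the groups were apart. The 5 erythroid markers summed to 33.1 to 54.2 CPM in stimulated KO libraries against 8.53 to 22.9 CPM in stimulated WT libraries, and to 25.6 to 38.4 CPM in unstimulated KO libraries against 44.0 to 62.2 CPM in unstimulated WT libraries, apart in both states but in opposite directions. The 5 dendritic cell markers summed to 6.88 to 62.7 CPM in stimulated KO libraries against 3.51 to 12.8 CPM in unstimulated KO libraries, and to 24.0 to 42.6 CPM in stimulated WT libraries against 4.95 to 13.0 CPM in unstimulated WT libraries, apart in WT. The CD8 and NK cell markers stayed at or under 29.5 CPM and the stromal and epithelial markers at or under 26.7 CPM. No listed marker of these types was at 0 in all 12 libraries. The part of other cell types in the results was not tested.

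The family took between 0.644% and 0.932% of all counts. Summed over its 47 members it stood at 8175, 7285 and 8449 CPM in the 3 stimulated KO libraries, against 9659.7, 8616 and 9282 CPM in the stimulated WT libraries. The unstimulated KO libraries had 6497, 6553 and 7516 CPM, against 8140.5, 8685 and 8146 CPM in the unstimulated WT libraries. Every KO library thus lay below every WT library of the same state. In bulk libraries such as these, fewer cells of a type and less RNA per cell cannot be told apart. The deposited counts of 11 members (Psma3, Psma4, Psma5, Psmb3, Psmb5, Psmb7, Psmb9, Psmd2, Psmd11, Psme2 and Psme2b) were not whole numbers in 11 or 12 libraries, those of Psmb8 in 7, of Psma2 and Psmd1 in 3 and of Psmd13 in 1, so some of their reads were divided with another gene or copy.

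**Figure D1:**
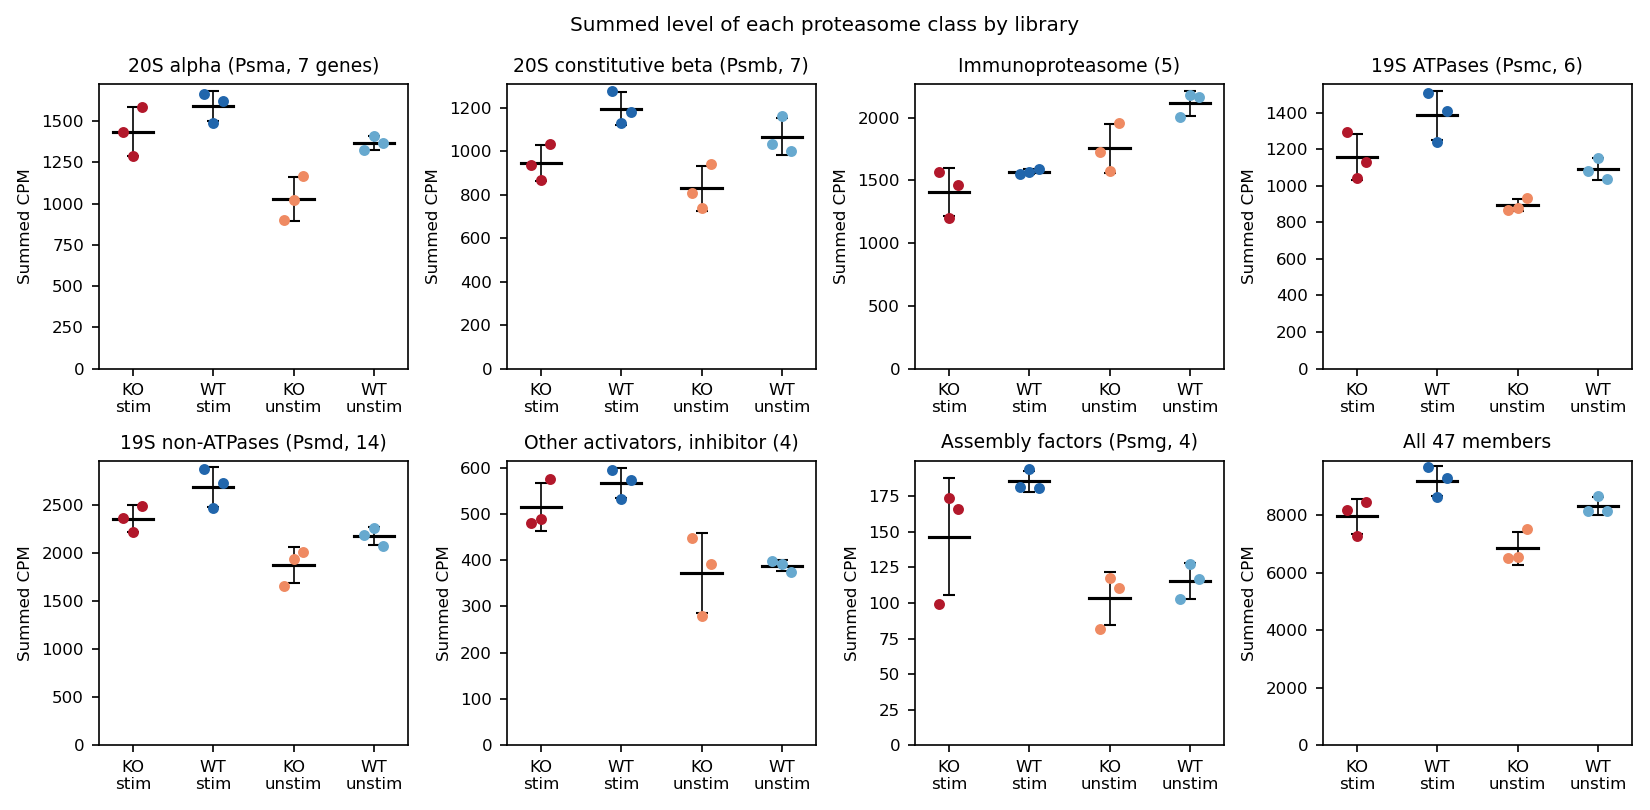
Summed CPM (vertical axis, from 0) of each class of proteasome genes and of all 47 members, for the 12 libraries (points, by group on the horizontal axis), with the group mean (line) and SD (bars, n = 3). The immunoproteasome panel runs the other way from the rest: its stimulated libraries (1199 to 1589 CPM) lie below the unstimulated ones of the same genotype, while the 19S panels are higher after stimulation.

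To rank the members, levels were taken per kilobase of the principal transcript. On that scale the immunoproteasome held the highest members in every group. Psmb8, which encodes the inducible counterpart of the chymotrypsin-like subunit, ranked first of 47 in unstimulated cells, with a mean of 415 ± 52.3 CPM per kilobase in KO and 513 ± 12.9 CPM per kilobase in WT (SD, n = 3 each). Psme2, encoding PA28 beta, ranked first in stimulated cells, with 482 ± 94.3 CPM per kilobase in KO and 490.5 ± 37.1 CPM per kilobase in WT (SD, n = 3 each). Psme4, the gene of the activator PA200, ranked last in stimulated WT and in both unstimulated groups, at 3.92 ± 0.599, 4.30 ± 1.46 and 3.87 ± 0.891 CPM per kilobase. In stimulated KO cells it ranked 46 of 47 at 10.4 ± 2.56 CPM per kilobase.

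After stimulation the transcripts of a pair of inducible catalytic subunits, Psmb8 and Psmb10, were lower in both genotypes, while several 19S and activator transcripts were higher. In KO cells 12 of 47 members rose and 3 fell; over all 14827 genes 7.45% rose and 7.83% fell. In WT cells 6 of 47 rose and 3 fell, against 6.12% and 5.41% of all genes. The median log2 fold change of the members was 0.29 in KO and 0.26 in WT, and over all genes tested it was -0.02 and -0.03.

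Psmb8 stood at 393, 309 and 311 CPM in stimulated KO libraries, against 646, 609.6 and 772 CPM in unstimulated KO libraries. In stimulated WT libraries it was 446, 385 and 373 CPM, against 812, 853 and 838 CPM in unstimulated WT libraries. All stimulated libraries lay below all unstimulated ones, with no overlap in either genotype. Psmb8 fell by 1.00 (SE 0.13, adjusted p = 0.000249) in KO and by 1.06 (SE 0.13, adjusted p = 0.000156) in WT on the log2 scale, by the edgeR quasi-likelihood test with Benjamini-Hochberg adjustment.

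Psmb10 encodes the inducible counterpart of the trypsin-like subunit. It stood at 63.9, 50.8 and 74.5 CPM in stimulated KO libraries, against 178, 133 and 176 CPM in unstimulated KO libraries. Stimulated WT libraries had 86.4, 89.6 and 115 CPM, against 181, 198 and 181 CPM in unstimulated WT libraries. The groups were again apart in both genotypes, and Psmb10 fell by 1.36 (SE 0.19, adjusted p = 0.000514) in KO and by 0.94 (SE 0.19, adjusted p = 0.00578) in WT. The Psmb8 and Psmb10 calls held without any 1 of the 6 libraries of each comparison. The monocyte and macrophage markers (both genotypes) and the B cell markers (WT) were lower in the stimulated libraries too, and their part in these falls was not tested.

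None of the remaining immunoproteasome genes was called lower by the edgeR test. Psmb9, the inducible counterpart of the caspase-like subunit, had 213, 210.2 and 262 CPM in stimulated KO libraries, against 243, 224 and 281 CPM in unstimulated KO libraries, and these overlapped. It had 201, 241 and 226 CPM in stimulated WT libraries, against 260.2, 276 and 307 CPM in unstimulated WT libraries, which were apart, but the difference of -0.34 (SE 0.14) missed the threshold by edgeR (adjusted p = 0.161), while limma-voom called it (adjusted p = 0.0376). Psme1, the gene of PA28 alpha, averaged 314 ± 55.6 CPM in stimulated KO and 351 ± 48.7 CPM in unstimulated KO, and 378 ± 9.12 CPM in stimulated WT and 420.2 ± 34.1 CPM in unstimulated WT (SD, n = 3 each), and was not called in either genotype. Psme2 rose in KO by 0.54 (SE 0.14, adjusted p = 0.0207), at 559, 378 and 455 CPM in stimulated libraries against 300.1, 314 and 339.9 CPM in unstimulated ones. That call was lost without unstimulated KO replicate 1 (adjusted p = 0.0588) or replicate 2 (adjusted p = 0.0537). In WT, Psme2 averaged 472 ± 35.6 CPM in stimulated and 394 ± 32.8 CPM in unstimulated cells (SD, n = 3 each) and was not called.

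**Figure D2:**
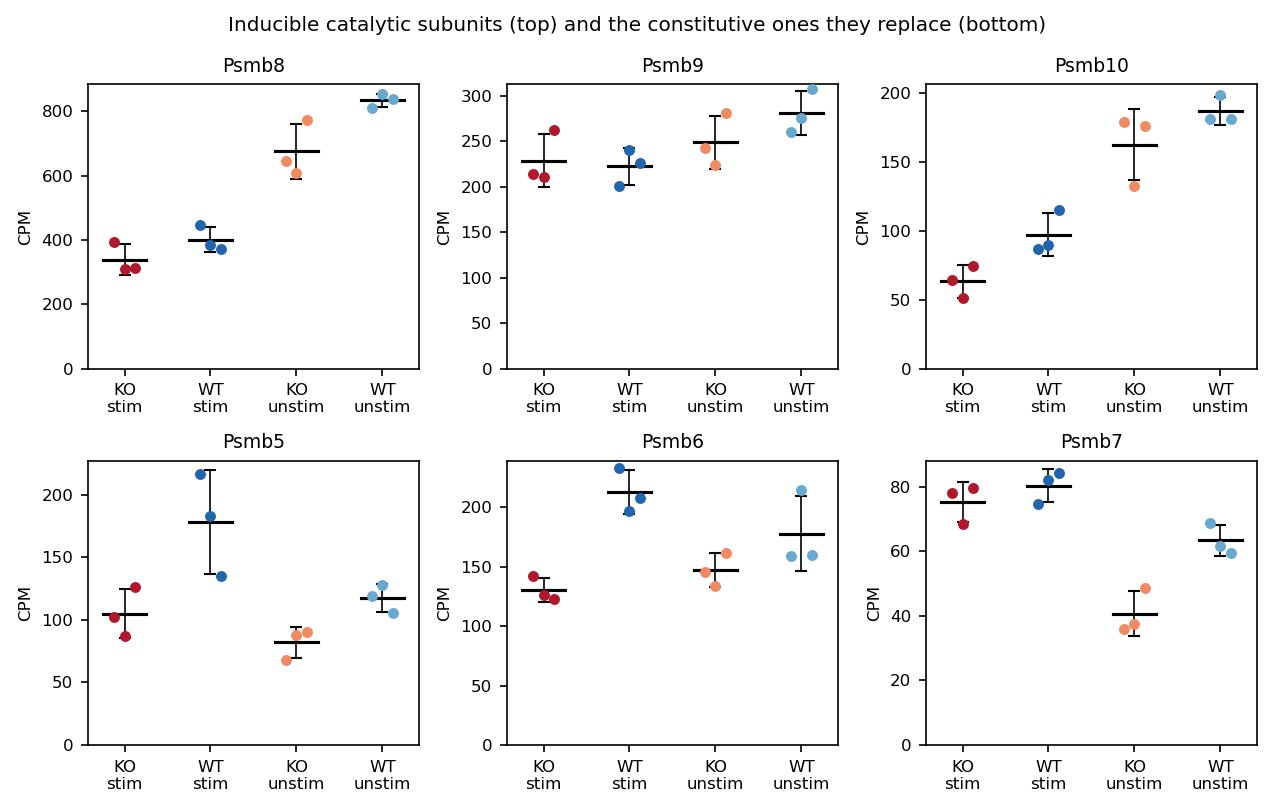
CPM (vertical axes, from 0) of the inducible catalytic subunits in the top row and of the constitutive subunit each replaces below it, for the 12 libraries by group, with mean (line) and SD (bars, n = 3). Psmb8 and Psmb10 are lower in all stimulated libraries than in the unstimulated ones of the same genotype, Psmb9 shows smaller differences, and Psmb6 is lower in the stimulated KO libraries (123 to 142 CPM) than in the stimulated WT libraries (197 to 233 CPM).

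The promoter windows of the inducible genes are given because edgeR called Psmb8 and Psmb10 lower in both genotypes and Psmb9 in neither. Each window is from RefSeq (GRCm38.p6), runs 5′ to 3′ on the gene's strand and covers 250 bases before to 50 after the start site. Capitals mark a match to the gamma-activated sequence (GAS) motif TTCNNNGAA, known from interferon-responsive promoters, or to the antioxidant response element core TGACNNNGC, bound by NRF1 (Nfe2l1) and NRF2. Psmb8 lies at chr17:34197945-34198244 (plus strand), Psmb10 at chr8:105938343-105938642 (minus strand) and Psmb9 at chr17:34187281-34187580 (minus strand).
Psmb8: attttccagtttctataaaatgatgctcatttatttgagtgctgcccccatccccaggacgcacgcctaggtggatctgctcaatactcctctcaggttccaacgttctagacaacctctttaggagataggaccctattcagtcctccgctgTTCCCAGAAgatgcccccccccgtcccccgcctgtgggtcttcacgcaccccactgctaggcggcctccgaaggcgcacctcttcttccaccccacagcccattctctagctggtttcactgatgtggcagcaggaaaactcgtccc
Psmb10: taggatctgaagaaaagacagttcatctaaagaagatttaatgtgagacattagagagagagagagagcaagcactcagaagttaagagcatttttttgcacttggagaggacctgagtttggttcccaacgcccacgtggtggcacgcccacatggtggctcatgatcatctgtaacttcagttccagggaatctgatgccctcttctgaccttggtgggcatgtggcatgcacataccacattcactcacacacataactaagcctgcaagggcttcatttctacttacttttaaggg
Psmb9: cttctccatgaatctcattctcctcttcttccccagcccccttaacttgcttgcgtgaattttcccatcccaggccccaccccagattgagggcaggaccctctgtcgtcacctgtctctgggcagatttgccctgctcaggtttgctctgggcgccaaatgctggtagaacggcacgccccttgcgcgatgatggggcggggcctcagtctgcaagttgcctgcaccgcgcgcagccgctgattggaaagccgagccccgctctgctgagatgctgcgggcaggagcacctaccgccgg
Psmb8 held a GAS match that began 97 bases before its RefSeq start site, and the windows of Psmb10 and Psmb9 held neither motif. In the GENCODE annotation Psmb8 begins further upstream, at base 34197721, and so does Psmb9, at base 34187764. The windows of Psmb8 and Psmb9 thus lie inside the annotated genes and cover only the RefSeq start sites. Both strands were searched. The windows of 40 member genes were in the table, 43 windows in all. GAS matches occurred in 6.98% of these and in 8.3% of all 32851 mouse windows, and antioxidant element matches in 14.0% and 12.4%. A match is a string of letters and not a measured binding site.

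Psmb9 shares its promoter with Tap1, which encodes a subunit of the peptide transporter TAP and is read from the opposite strand. Their RefSeq start sites are 226 bases apart and the windows share 275 bases. Tap1 stood at 911, 779 and 801 CPM in stimulated KO libraries, against 467, 526 and 618 CPM in unstimulated KO libraries. It rose in KO by 0.63 (SE 0.14, adjusted p = 0.00979) and in WT, at 1276, 990.0 and 898 CPM in stimulated against 691, 656 and 705 CPM in unstimulated libraries, by 0.63 (SE 0.14, adjusted p = 0.0114). Psmb9, on the other side of the same window, was not called by edgeR in either genotype; limma-voom called it lower in WT. Exons of the 2 genes overlap on opposite strands in the GENCODE annotation, and the kit marks strand, but whether the counting used it is not stated, so reads may be shared between them.

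Of the 3 constitutive catalytic subunits, edgeR called Psmb7 in KO. Psmb7, the constitutive trypsin-like subunit, stood at 78.0, 68.3 and 79.7 CPM in stimulated KO libraries, against 36.0, 37.5 and 48.6 CPM in unstimulated KO libraries, and rose by 0.89 (SE 0.19, adjusted p = 0.00828), a call that held without any 1 of the 6 libraries but not by limma-voom (adjusted p = 0.0595) or in a fit of the compared groups alone (adjusted p = 0.103). In WT it averaged 80.3 ± 5.10 CPM in stimulated and 63.4 ± 4.84 CPM in unstimulated cells (SD, n = 3 each) and was not called. Psmb5, the chymotrypsin-like subunit, had 217, 183 and 135 CPM in stimulated WT libraries against 119, 128 and 106 CPM in unstimulated WT libraries, a difference of 0.60 (SE 0.21) short of the threshold by edgeR (adjusted p = 0.0979) but called by limma-voom (adjusted p = 0.0133) and in a fit of the compared groups alone (adjusted p = 0.0455). Psmb6, the caspase-like subunit, was not called in either genotype.

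Within each library the log2 ratio of an inducible subunit to the constitutive one it replaces was taken from CPM with 0.5 added to both. These ratios were compared in 12 comparisons. Transcript length was not taken into account, so a ratio by itself does not show which gene of the pair is higher per kilobase. A difference of a ratio between groups compares the same pair of genes. The Psmb8 to Psmb5 ratio averaged 1.69 ± 0.34 in stimulated KO and 3.04 ± 0.24 in unstimulated KO, and 1.19 ± 0.24 in stimulated WT and 2.82 ± 0.14 in unstimulated WT (SD, n = 3 each). The Psmb10 to Psmb7 ratio averaged -0.27 ± 0.16 in stimulated KO and 1.98 ± 0.27 in unstimulated KO, a difference of -2.25, and 0.26 ± 0.17 in stimulated WT and 1.55 ± 0.15 in unstimulated WT, a difference of -1.29. All libraries of one state lay on one side of the other state in these 4 comparisons. A two-sided exact permutation test gave p = 0.1 for each, the smallest that 3 against 3 libraries allow (Benjamini-Hochberg 0.15 over the 12). The Psmb9 to Psmb6 ratio averaged 0.80 ± 0.26 in stimulated KO and 0.76 ± 0.03 in unstimulated KO, which overlapped (exact permutation p = 1). It averaged 0.06 ± 0.26 in stimulated WT and 0.67 ± 0.29 in unstimulated WT, with no overlap (exact permutation p = 0.1).

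Among the alpha subunits, 2 of 7 rose on stimulation in KO and 0 of 7 in WT by edgeR, where none had an unadjusted p under 0.05. Psma5 stood at 155, 142 and 250.2 CPM in stimulated KO libraries, against 63.4, 60.1 and 90.4 CPM in unstimulated KO libraries, and rose by 1.36 (SE 0.24, adjusted p = 0.0024). In stimulated WT libraries it was 182, 151 and 163 CPM, against 137, 109.8 and 105 CPM in unstimulated WT libraries, a difference of 0.50 (SE 0.23, adjusted p = 0.234) that limma-voom (adjusted p = 0.0317) and the compared groups alone (adjusted p = 0.0367) called. The stimulated levels of the genotypes overlap, and the unstimulated KO libraries are the lowest. Psma3 rose in KO by 0.68 (SE 0.16, adjusted p = 0.0139), with means of 299 ± 46.7 CPM in stimulated and 187 ± 37.0 CPM in unstimulated KO cells (SD, n = 3 each).

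Among the ATPases of the 19S base, edgeR called Psmc4 higher in both genotypes, Psmc2 in KO and Psmc5 in WT. Psmc2 stood at 240.0, 235 and 216 CPM in stimulated KO libraries, against 148, 108 and 152 CPM in unstimulated KO libraries, and rose by 0.76 (SE 0.15, adjusted p = 0.00522). In WT the Psmc2 libraries were apart as well, with a difference of 0.47 (SE 0.15, adjusted p = 0.0704) that DESeq2 (adjusted p = 0.0259), limma-voom (adjusted p = 0.00858) and the compared groups alone (adjusted p = 0.0222) called. Psmc4 rose by 0.59 (SE 0.15, adjusted p = 0.0228) in KO, at 252, 194 and 281 CPM against 144, 180.3 and 159 CPM, and by 0.56 (SE 0.15, adjusted p = 0.035) in WT, at 310.0, 253 and 301 CPM against 193, 194 and 199.9 CPM. Psmc5 rose in WT by 0.63 (SE 0.18, adjusted p = 0.0411), at 305, 276 and 315 CPM against 193, 205 and 182 CPM, and in KO its libraries overlapped.

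Of the 14 Psmd genes, 4 rose in KO and 3 in WT. Psmd11 and Psmd12, subunits of the 19S lid, rose in both genotypes. Psmd11 stood at 159, 199.9 and 265 CPM in stimulated KO libraries, against 141, 107 and 83.8 CPM in unstimulated KO libraries, and rose by 0.91 (SE 0.22, adjusted p = 0.0144). In WT it was 225, 212 and 221 CPM stimulated against 128, 111 and 102 CPM unstimulated, a rise of 0.95 (SE 0.22, adjusted p = 0.0139). Psmd12 stood at 216, 132 and 214 CPM in stimulated KO libraries, against 104, 90.3 and 109 CPM in unstimulated KO libraries, and rose by 0.89 (SE 0.19, adjusted p = 0.00682). In WT it was 188, 189 and 188 CPM stimulated against 103, 123 and 113 CPM unstimulated, a rise of 0.74 (SE 0.18, adjusted p = 0.0222). None of these groups overlapped. Psmd7, a lid subunit that pairs with the deubiquitinase Psmd14, and Psmd1, a scaffold of the base, rose in KO by 0.83 (SE 0.20, adjusted p = 0.016) and 0.65 (SE 0.19, adjusted p = 0.0379). In WT, Psmd7 was apart too, with a difference of 0.60 (SE 0.20, adjusted p = 0.0843) that DESeq2 (adjusted p = 0.0463), limma-voom (adjusted p = 0.00585) and the compared groups alone (adjusted p = 0.019) called. Psmd3 rose in WT by 0.47 (SE 0.13, adjusted p = 0.0412).

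The activators outside the immunoproteasome differed from each other. Psme3, the gene of the nuclear activator PA28 gamma, stood at 284, 361 and 467 CPM in stimulated KO libraries, against 244, 133 and 226 CPM in unstimulated KO libraries, and rose by 0.88 (SE 0.22, adjusted p = 0.0207). In WT it was 453, 404 and 456 CPM stimulated against 268, 241 and 217 CPM unstimulated, a rise of 0.85 (SE 0.22, adjusted p = 0.0283). Psme4 rose in KO by 1.28 (SE 0.33, adjusted p = 0.021) and averaged 25.5 ± 3.89 CPM in stimulated and 25.1 ± 5.78 CPM in unstimulated WT cells (SD, n = 3 each). Psmf1, the gene of the inhibitor PI31, was not called in either genotype.

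Psme2b, whose transcript is 99.4% identical to that of Psme2 over 794 aligned bases, fell by 1.44 (SE 0.32, adjusted p = 0.01) in KO and by 1.16 (SE 0.32, adjusted p = 0.0354) in WT. In the GENCODE annotation Psme2b also overlaps exons of the gene 9930111J21Rik1 on the same strand. Psme2b counts were not whole in any library. Its level therefore depends on how reads were divided with that gene or between the 2 copies. Their sum was 587, 403 and 468 CPM in stimulated KO libraries, against 362, 381 and 393 CPM in unstimulated KO libraries, and 451, 489.7 and 528 CPM in stimulated WT libraries, against 397, 473 and 431 CPM in unstimulated WT libraries. The sum is dominated by Psme2 and does not show the fall.

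None of the 4 Psmg genes was called on stimulation by the edgeR test in either genotype. At an unadjusted p under 0.05, Psmg2 differed by 0.61 (SE 0.28) in KO and Psmg1 by 0.81 (SE 0.37) in WT. Psmg3 averaged 38.4 ± 12.8 CPM in stimulated KO and 12.5 ± 11.4 CPM in unstimulated KO, and 43.7 ± 8.16 CPM in stimulated WT and 24.0 ± 1.75 CPM in unstimulated WT (SD, n = 3 each). The lowest Psmg3 value, 0.281 CPM from 8 reads in unstimulated KO replicate 1, stands far under the 14.4 and 22.9 CPM of the other unstimulated KO libraries.

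Several of these calls crossed the threshold when 1 library was left out, with folds of the same sign. In WT, the calls of Psmc5, Psmd3, Psme3 and Psme2b were lost without any 1 of the 6 libraries (adjusted p from 0.0517 to 0.152). Their log2 fold changes then ran from 0.58 to 0.67 for Psmc5, 0.41 to 0.52 for Psmd3, 0.79 to 0.92 for Psme3 and -1.29 to -1.05 for Psme2b. The Psmc4 call was lost without any of 5 libraries (up to 0.111), the Psmd12 call without any of 4 (up to 0.0947) and the Psmd11 call without unstimulated replicate 2 or 3 (up to 0.0656). In KO, Psma3, Psma5, Psmb7, Psmc2, Psmd7 and Psmd12 held without any 1 library, whereas Psmc4 was lost without unstimulated replicate 1 or 3 or stimulated replicate 3 (up to 0.0688), Psmd1 without unstimulated replicate 1 or 3 or stimulated replicate 1 or 3 (up to 0.0801), Psme4 without unstimulated replicate 2 or 3 or stimulated replicate 1 (up to 0.0833), Psmd11 without unstimulated replicate 3 (0.0502), Psme2b without unstimulated replicate 2 (0.0513) and Psme3 without stimulated replicate 3 (0.0674). Of the 12 rises in KO, limma-voom called 6 (Psma5, Psmc2, Psmd11, Psmd12, Psme3 and Psme4) and the compared groups alone called 1 (Psma5); these settings made 1476 and 1022 calls over all genes, against 2266 in the fit of all 12 libraries.

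**Figure D3:**
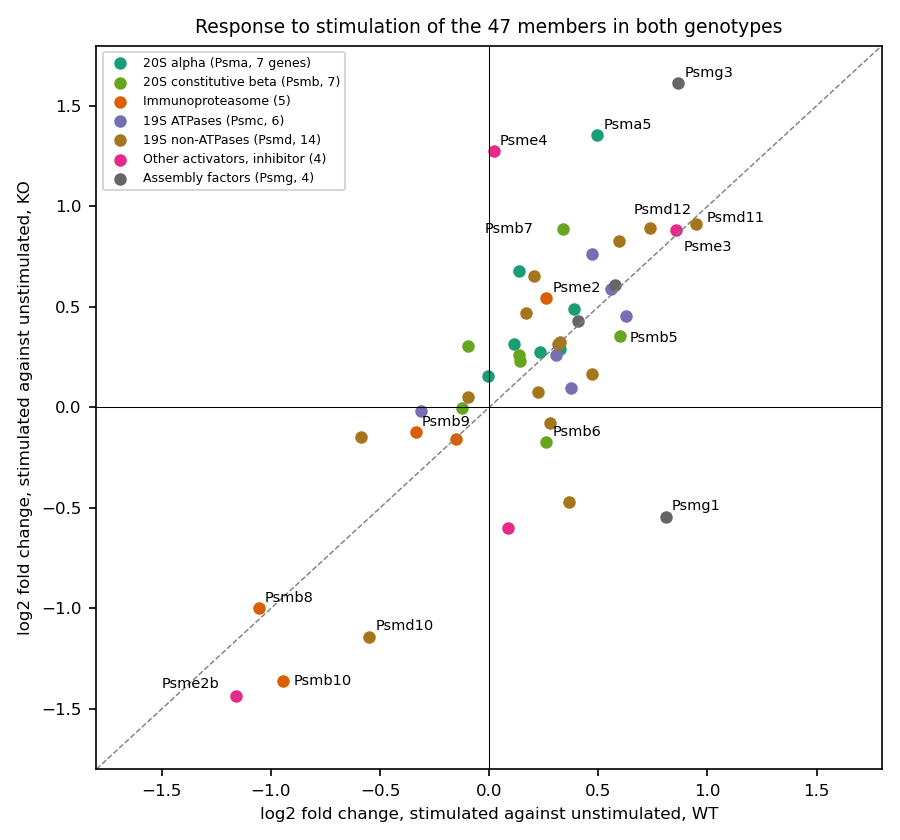
Log2 fold change of each of the 47 members on stimulation in WT (horizontal axis) and in KO (vertical axis), coloured by class, with the line of equal response dashed. Psmb8, Psmb10 and Psme2b sit at the lower left, Psmd11, Psmd12 and Psme3 near the line at the upper right, and Psme4, Psma5 and Psmg1 farther from it.

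The response to stimulation was shared by 7 members called in both genotypes, all in the same direction: Psmb8, Psmb10 and Psme2b fell, and Psmc4, Psmd11, Psmd12 and Psme3 rose. These are 46.7% of the 15 members called in KO and 77.8% of the 9 called in WT. Over all genes tested, the calls made in both genotypes were 53.8% of the KO calls and 71.4% of the WT calls. The log2 fold changes of the 2 genotypes, which share no library, had a Pearson r of 0.735 over the 47 members and 0.425 over all genes, given as a description across genes of the same 12 libraries.

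The interaction, the response of KO minus that of WT, was called for 0 of 47 members by the edgeR test, against 0.202% of all genes. At an unadjusted p under 0.05 there were 4 members (8.51%, against 8.75% of all genes): Psme4 at 1.25 (SE 0.46, adjusted p = 0.451), Psma5 at 0.86 (SE 0.33, adjusted p = 0.491), Psma3 at 0.54 (SE 0.23, adjusted p = 0.545) and Psmg1 at -1.35 (SE 0.52, adjusted p = 0.488). DESeq2 and limma-voom called none. Genes called in only 1 genotype are thus not shown to respond differently.

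Loss of Gpx4 in unstimulated cells went with small, mostly negative differences across the family, none of which passed the test. By edgeR 0 of 47 members were called, with 0.0674% of all genes called in either direction; 9 members (19.1%) had an unadjusted p under 0.05, against 5.80% of all genes. DESeq2 called 1 member and 1.23% of all genes, and limma-voom 0 members and 0.519% of all genes. The median log2 fold change of the members was -0.27 (41 negative, 6 positive), against a median of 0.01 over all genes, of which 50.5% were positive. The 3 KO libraries lay below the 3 WT libraries for 17 members (36.2%), against 9.89% of all genes tested. They lay above for 1 member (2.13%), Psme2b, against 8.42% of all genes. The direction of these differences is not independent between members, which come from the same 6 libraries.

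By class, the medians in unstimulated cells were -0.41 for the alpha subunits, -0.39 for the constitutive beta subunits and -0.26 for the immunoproteasome. They were -0.25 for the ATPases, -0.26 for the Psmd genes, 0.09 for the other activators and inhibitor and -0.11 for the Psmg genes. Every gene of the alpha, constitutive beta, immunoproteasome and ATPase classes had a negative value. With mitochondrially encoded genes left out of the library totals, the median of the members was -0.26. The heat shock list holds 13 genes, of chaperones, their partners and the transcription factor Hsf1. It summed to 16910, 20970 and 16640 CPM in unstimulated KO libraries against 7558, 8008 and 7740 CPM in unstimulated WT libraries. The part of this list in the proteasome values was not tested.

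The members with the smallest p in their classes illustrate the size of the differences. Psma2 stood at 197, 223 and 260.1 CPM in unstimulated KO libraries, against 273, 319.6 and 313 CPM in unstimulated WT libraries, a difference of -0.41 (SE 0.12, adjusted p = 0.527). Psmb7 stood at 36.0, 37.5 and 48.6 CPM in KO against 68.9, 61.8 and 59.6 CPM in WT, a difference of -0.64 (SE 0.19, adjusted p = 0.53). For both, KO and WT libraries were apart, and Psmb7 is the member that DESeq2 called (adjusted p = 0.0441). Psmc3, an ATPase subunit, averaged 176 ± 22.1 CPM in KO and 249 ± 24.2 CPM in WT (SD, n = 3 each; log2 difference -0.49, SE 0.17, adjusted p = 0.708). Psmb8 averaged 676 ± 85.1 CPM in KO and 834 ± 20.9 CPM in WT, a log2 difference of -0.30 (SE 0.13, adjusted p = 0.854). Psmd1 differed by -0.33 (SE 0.19, adjusted p = 0.974), Psme2b by 0.60 (SE 0.32, adjusted p = 0.92) and Psmg3, where 1 KO library was near 0, by -0.94 (SE 0.90, adjusted p = 1).

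In stimulated cells 1 member was higher in KO, Psme4, and 1 was lower, Psmb6, with 1.03% of all genes higher and 1.25% lower. The median of the members was -0.20 (39 negative, 8 positive) against 0 over all genes. KO libraries lay below WT libraries for 12 members (25.5%), against 11.9% of all genes. By edgeR, 12 members (25.5%) had an unadjusted p under 0.05, against 18.3% of all genes.

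Psme4 encodes PA200, an activator known for work on histones in the nucleus. It stood at 86.7, 56.4 and 59.7 CPM in stimulated KO libraries, against 26.7, 28.6 and 21.1 CPM in stimulated WT libraries, with no overlap. The log2 fold change was 1.41 (SE 0.33, adjusted p = 0.0486). In unstimulated cells it was 38.4, 20.2 and 25.1 CPM in KO, against 21.2, 22.4 and 31.7 CPM in WT, and these overlapped. Psmb6 stood at 142, 126 and 123 CPM in stimulated KO libraries, against 233, 197 and 208 CPM in stimulated WT libraries, also without overlap. It was lower by 0.71 on the log2 scale (log2 fold change -0.71, SE 0.15, adjusted p = 0.0378). In unstimulated cells it was 146, 133 and 162 CPM in KO, against 159, 214 and 160.0 CPM in WT, and these overlapped.

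Both calls are close to the threshold. Psme4 kept its call without stimulated KO replicate 2 (adjusted p = 0.0401) and Psmb6 without stimulated KO replicate 1 (adjusted p = 0.0353). Without any 1 of the other 5 libraries the adjusted p was 0.0506 to 0.162 for Psme4 and 0.063 to 0.169 for Psmb6. Over all 6 the log2 fold change ran from 1.24 to 1.57 for Psme4 and from -0.72 to -0.61 for Psmb6. Limma-voom called neither (adjusted p = 0.0726 for Psme4 and 0.234 for Psmb6). DESeq2 called Psmb6 and 3 further members lower, Psmb5, Psmb10 and Psmg1. Over all 14827 genes, DESeq2 made 1564 calls in either direction in this comparison, limma-voom 95 and edgeR 337.

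The promoter windows of Psmb6, at chr11:70525107-70525406 (plus strand), and Psme4, at chr11:30771525-30771824 (plus strand), are shown because these are the 2 genes called between the genotypes. They come from the same RefSeq table, in the same layout.
Psmb6: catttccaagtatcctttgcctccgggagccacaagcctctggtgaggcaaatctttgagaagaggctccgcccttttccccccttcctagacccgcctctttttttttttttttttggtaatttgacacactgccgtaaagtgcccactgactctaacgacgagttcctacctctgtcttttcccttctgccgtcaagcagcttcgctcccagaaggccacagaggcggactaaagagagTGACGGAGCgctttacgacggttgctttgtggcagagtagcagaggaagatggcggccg
Psme4: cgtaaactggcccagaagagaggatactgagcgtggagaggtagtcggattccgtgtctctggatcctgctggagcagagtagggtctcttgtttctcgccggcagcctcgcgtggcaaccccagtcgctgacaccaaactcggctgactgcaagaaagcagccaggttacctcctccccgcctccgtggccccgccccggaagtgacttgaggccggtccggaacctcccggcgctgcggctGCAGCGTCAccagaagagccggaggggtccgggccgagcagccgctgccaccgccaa
Each holds a match to the antioxidant element core TGACNNNGC near its start site, which begins 9 bases before it on the gene's strand in Psmb6 and 7 bases before it on the other strand in Psme4. Windows of Psmb5, Psmc6, Psmd9 and Psmd12 hold such a match too. Psme4 was higher and Psmb6 lower in stimulated KO cells, so the letters are found beside both directions.

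**Figure D4:**
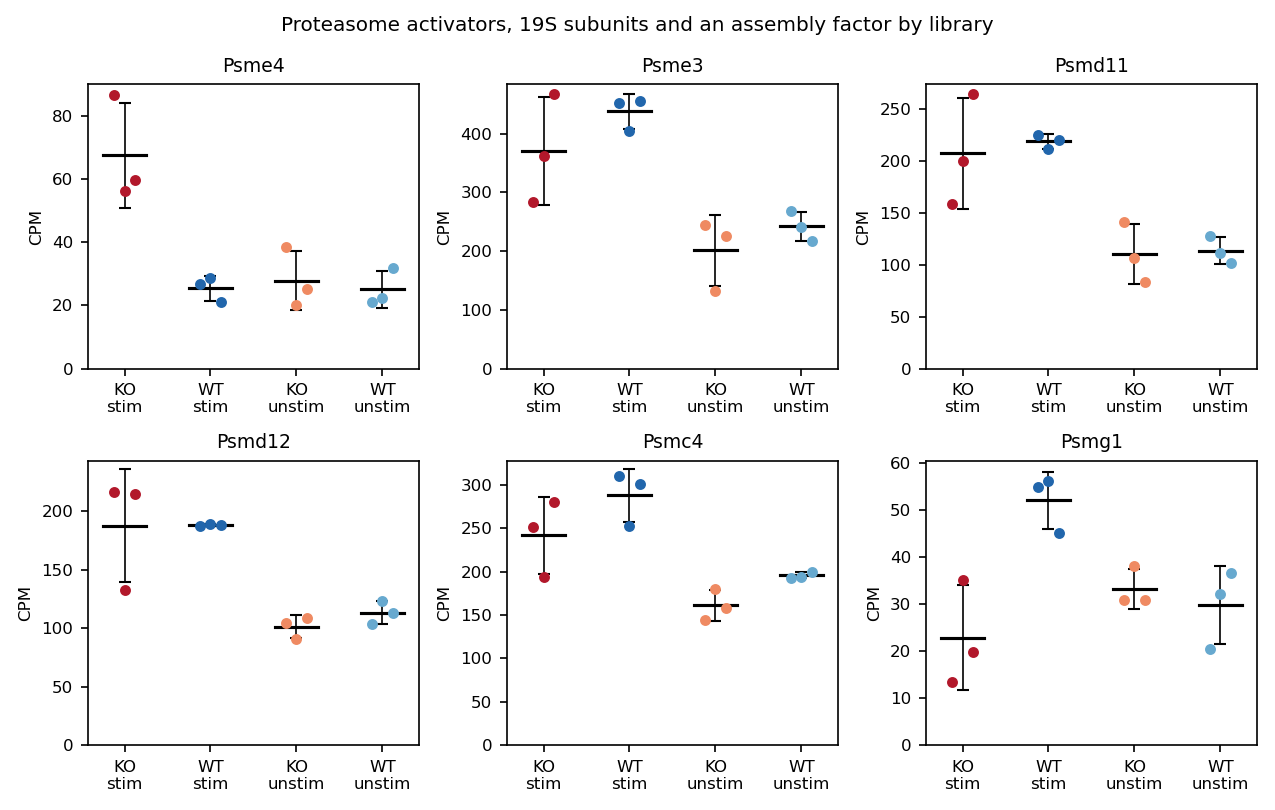
CPM (vertical axes, from 0) of 2 activators, 3 19S subunits and an assembly factor for the 12 libraries by group, with mean (line) and SD (bars, n = 3). Psme4 is highest in the stimulated KO libraries (56.4 to 86.7 CPM), Psme3, Psmd11, Psmd12 and Psmc4 are higher in stimulated than in unstimulated libraries in both genotypes, and Psmg1 is highest in stimulated WT (45.0 to 56.1 CPM).

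Several members that missed the threshold in stimulated cells had non-overlapping groups. Psmb5 stood at 102, 87.3 and 126 CPM in KO libraries, against 217, 183 and 135 CPM in WT libraries, a log2 difference of -0.76 (SE 0.21, adjusted p = 0.0913). Psmb10 differed by -0.62 (SE 0.19, adjusted p = 0.118) and Psmg1, the gene of an early chaperone of alpha ring assembly, by -1.19 (SE 0.37, adjusted p = 0.127). Psmg1 had 13.4, 35.1 and 19.7 CPM in KO libraries, against 54.8, 56.1 and 45.0 CPM in WT libraries. Psmd14, the lid deubiquitinase, averaged 115 ± 25.1 CPM in KO and 185 ± 22.5 CPM in WT (SD, n = 3 each; log2 difference -0.68, SE 0.22, adjusted p = 0.139). Psma7 differed by -0.37 (SE 0.16, adjusted p = 0.254). Psmc5, whose libraries overlapped, differed by -0.39 (SE 0.18, adjusted p = 0.27).

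The Psmb9 to Psmb6 ratio averaged 0.80 ± 0.26 in stimulated KO and 0.06 ± 0.26 in stimulated WT, with no overlap, while Psmb9 itself averaged 229 ± 29.2 CPM in KO and 223 ± 20.2 CPM in WT (SD, n = 3 each). The Psmb10 to Psmb7 ratio was lower in stimulated KO by 0.53 (difference -0.53) and higher in unstimulated KO by 0.43, each without overlap. For these 3 differences the two-sided exact permutation p was 0.1, the smallest possible (Benjamini-Hochberg 0.15). The remaining genotype comparisons of ratios overlapped. Psmb8 to Psmb5 differed by 0.50 in stimulated and 0.22 in unstimulated cells (exact permutation p = 0.2 each). Psmb9 to Psmb6 differed by 0.09 in unstimulated cells (exact permutation p = 0.7).

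Across both states, 35 of 47 members (74.5%) had a negative genotype difference, against 28.9% of all genes tested. KO libraries lay below WT libraries in both states for 5 members (10.6%), Psma2, Psma7, Psmb2, Psmb5 and Psmb10, against 2.10% of all genes. The 2 genotype comparisons share no library, but members within a comparison share all of theirs.

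**Figure D5:**
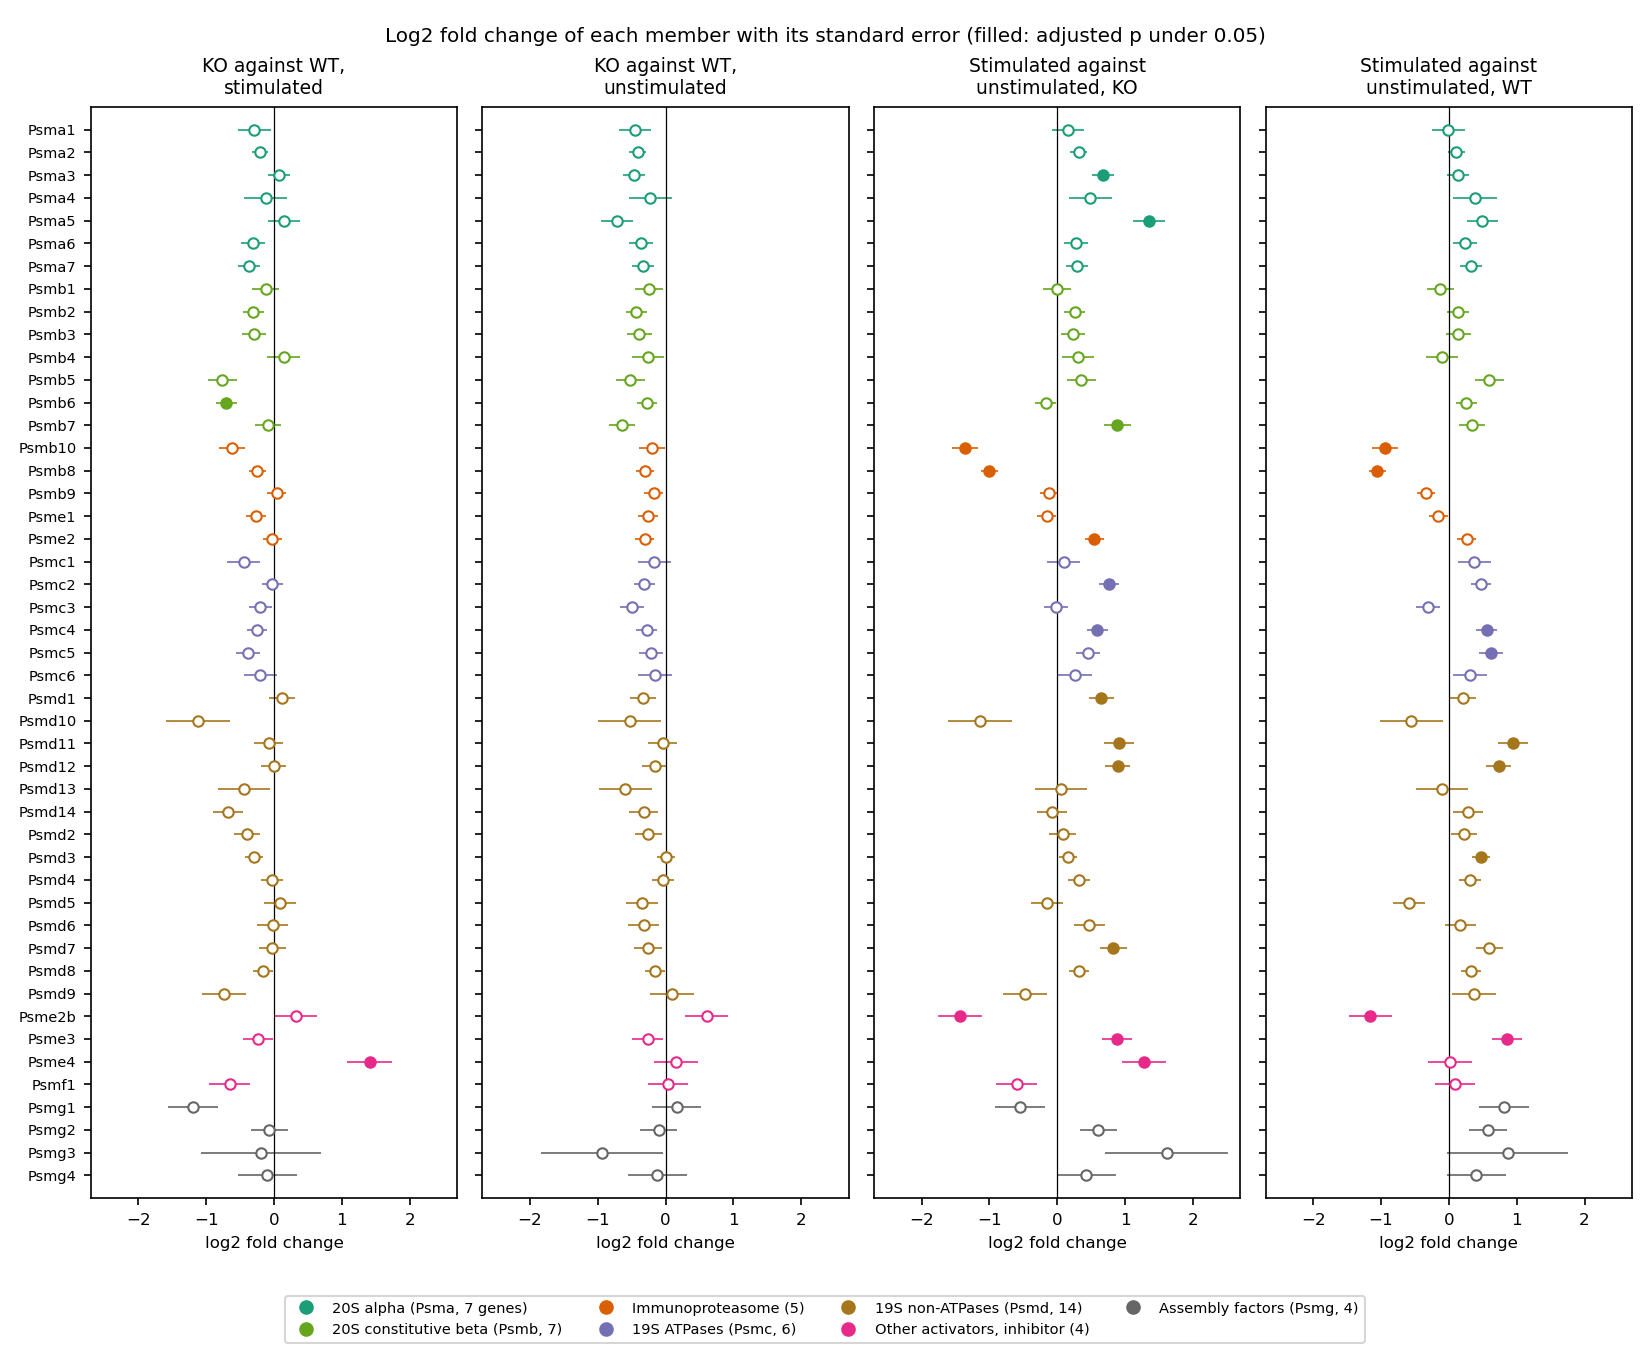
Log2 fold change (horizontal axes) with its edgeR standard error (bars) for each of the 47 members (rows, coloured by class) in the 4 comparisons, with filled points for members called at an adjusted p under 0.05. The points of the genotype comparisons lie mostly left of 0 with 0 and 2 filled, and those of the stimulation comparisons mostly right of 0, with Psmb8, Psmb10 and Psme2b filled on the left in both genotypes.

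The median coefficient of variation of a member over the 3 libraries of a group was 22.3% in stimulated KO, 10.9% in stimulated WT, 15.4% in unstimulated KO and 9.48% in unstimulated WT. For the other tested genes whose mean lay within the range of the members' levels it was 33.6%, 16.5%, 21.2% and 14.1% in the same order. By these medians the spread was widest in stimulated KO for both sets. The largest value of a single member was 55.9% there and 91.3% in unstimulated KO.

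A list of 35 partners and regulators that lie outside the symbol pattern was set beside the family; 31 were in the table and all were tested. In KO 3 rose on stimulation and 2 fell, against 7.45% and 7.83% of all genes. In WT 7 rose and 2 fell, against 6.12% and 5.41% of all genes. Between genotypes 0 were called by edgeR. At an unadjusted p under 0.05 there were 5 in stimulated and 4 in unstimulated cells, where 18.3% and 5.80% of all genes had one. Adrm1, the gene of the 19S ubiquitin receptor RPN13, rose in KO, at 292, 297 and 210.0 CPM in stimulated against 138, 133 and 139 CPM in unstimulated libraries (log2 0.97, SE 0.14, adjusted p = 0.000721). It rose in WT, at 233, 258 and 269 CPM stimulated against 144, 136 and 141 CPM unstimulated, by 0.85 (SE 0.14, adjusted p = 0.0017).

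Nfe2l1 encodes NRF1, the factor known to induce proteasome genes when proteasome activity is short. It stood at 210.2, 179.6 and 156 CPM in stimulated KO libraries, against 183, 206 and 133 CPM in unstimulated KO libraries, and these overlapped. In WT it was 255, 211 and 247 CPM stimulated against 155, 92.4 and 88.3 CPM unstimulated, a rise of 1.09 (SE 0.24, adjusted p = 0.00954). The difference between these responses was -1.03 (SE 0.33) and was not called (adjusted p = 0.402). Pomp, the gene of the chaperone that completes core maturation, was not called in any comparison.

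In the list of 14 interferon-linked antigen processing genes, 2 were higher (Nlrc5, B2m) and 1 lower (Calr) in stimulated KO than in stimulated WT cells. Over all genes 1.03% were higher and 1.25% lower. In unstimulated cells 0 were called by edgeR. At an unadjusted p under 0.05 there were 10 in stimulated and 7 in unstimulated cells, where 18.3% and 5.80% of all genes had one. On stimulation 5 rose and 6 fell in KO, against 7.45% and 7.83% of all genes. In WT 4 rose and 4 fell, against 6.12% and 5.41% of all genes. Irf1, an interferon-responsive transcription factor, rose in KO by 0.75 (SE 0.15, adjusted p = 0.00468) and in WT by 1.01 (SE 0.15, adjusted p = 0.000638). Tapbp, the gene of the peptide-loading factor tapasin, fell by 1.05 (SE 0.10, adjusted p = 2.73e-05) in KO and by 1.09 (SE 0.10, adjusted p = 1.79e-05) in WT. The list thus held changes in both directions alongside the falls of Psmb8 and Psmb10.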

How the data were processed

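The authors deposited a table of RSEM expected counts per gene, which need not be whole numbers, for 12 libraries of 4 groups; the submitters' processing notes name GRCm38 as build, whereas the aligner and the strand setting of the counting are not given there or in the labels. Every column was matched to a sample by its title. Expected counts were rounded to whole numbers, and 14827 genes passed filterByExpr. One edgeR 4.0.16 quasi-likelihood fit (R 4.3.3, TMM, robust) with a mean for each of the 4 groups (residual degrees of freedom: 8) gave the 5 comparisons; adjusted p-values are Benjamini-Hochberg over all genes, with a threshold of 0.05. Levels are CPM, as mean ± SD over 3 libraries.

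Inducible to constitutive ratios were tested with two-sided exact permutation tests. Alternatives used DESeq2 1.42.0, limma-voom (limma 3.58.1), other scalings, no filter, fits of the compared groups alone, blocks by replicate number and single libraries left out. Wherever limma-voom is named, it was run with sample quality weights, which give more variable libraries less weight. The scripts were tested on simulated data. Coordinates and overlaps come from GENCODE M21. Genes named are the immunoproteasome members, Psmb5, Psmb6, Psmb7, Psme3, Psme4, Psmf1 and the Psmg genes throughout, the called members with the smallest adjusted p (up to 8 a direction) and the smallest p of a class with no call. Psma3 in the interaction, Psmb5 in stimulated cells, Psma5, Psmb9, Psmc2 and Psmd7 for stimulation in WT and the members named in a count of 5 or fewer were added after their values were seen. The members and lists were chosen with earlier results of these data known. Same-numbered libraries of 2 groups did not deviate together (correlations from -0.03 to 0.06). Testis-specific and thymus-specific core subunits were not analysed here. Some genes of the partner list are counted but not reported by name here.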

Additional observations from a re-analysis of the deposited data

How the results depend on the processing

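The medians of the members kept their sign under every alternative in the 4 pairwise comparisons, from -0.26 to -0.12 for KO against WT in stimulated cells, from -0.31 to -0.20 in unstimulated cells, from 0.22 to 0.35 for stimulation in KO and from 0.22 to 0.32 in WT. The counts of called members moved. DESeq2 called 1 lower in unstimulated KO against WT and 4 lower in stimulated KO against WT, where it called 183 and 1564 of all genes in either direction, against 10 and 337 by edgeR. In stimulated KO against WT, limma-voom, no filter on low counts and a fit of the compared groups alone called 0 higher and 0 lower, and leaving out single libraries gave 0 to 1 higher and 0 to 1 lower. For stimulation in WT, limma-voom called 14 higher and 5 lower, no filter 3 higher, the compared groups alone 12 higher, and single libraries left out 0 to 2 higher; over all genes limma-voom made 3998 calls, no filter 1546 and the compared groups alone 3499, against 1709 in the reported fit. For stimulation in KO, limma-voom called 6 higher and the compared groups alone 1 higher, and single libraries left out gave 2 to 5 lower. The cause was not tested, except that fits without a library tested more genes and had fewer samples. Limma-voom also moved the median of all genes to -0.22 in stimulated KO against WT and to -0.29 for stimulation in KO.

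The replicate numbers did not pair the libraries, so the replicate block is given here alone. With it, 0 members were called higher and 0 lower in stimulated KO against WT and 3 higher for stimulation in WT, where the replicate block within genotype called 1 higher. Without mitochondrially encoded genes the summed immunoproteasome level of stimulated WT was 1598.8 CPM, against 1570.6 CPM. The Psmb9 to Psmb6 log2 ratio differed by -0.068 to 0.22 in unstimulated KO against WT and by -0.097 to 0.16 for stimulation in KO when single libraries were left out, so neither direction is fixed. Psmg3 had 8 reads in unstimulated KO replicate 1, a library with a total of 28703618 counts. The cause of this low count was not tested.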
